A study of Arabidopsis thaliana with 6 samples.

Results

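*FLC* (AT5G10140), *SOC1* (AT2G45660) and *AGL24* (AT4G24540) are 3 MADS box genes of flowering time, and they were read by locus from a deposited table of 454 genes. The table holds mRNA levels of whole *Arabidopsis* seedlings in 6 libraries, with 2 for each of 3 genotypes: a pair labelled *sap18*, a pair of *sr45* (sr45-1) and a pair of Col-0, the wild type of both mutants. All seedlings were 11 days old and had grown in a cycle of 16 h light and 8 h dark at 22 °C, following 48 h of stratification at 4 °C. Both mutants are T-DNA insertion lines in the Col-0 background, and each genotype is represented by a single line. SAP18 and SR45 are subunits of the ASAP complex, which also contains ACINUS and sits on RNA beside the exon junction complex.

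Levels are in cRPKM, reads scaled by the mappable positions of a gene and by the size of the library, after quantile normalization. The table was limited by the authors to genes that they called changed, so most of its genes differ between genotypes, and the shares of the whole table given with each count are the background for the 3 genes. No read counts were used, the series design gives a nominal 30 M reads per sample, the depth reached by each library is not known from the table, and the spread between libraries is the only measure of error. The titles and genotype labels of one pair of libraries name *sap18sr45*, while their descriptions and the series design name *sap18*. *SAP18* mRNA was at 936 and 900 cRPKM in that pair, against 76.6 and 83.7 cRPKM in Col-0 (11.4-fold higher), and *SR45* was at 20.9 and 23.1 cRPKM, against 23.1 and 19.4 cRPKM in Col-0. Since the level of *SAP18* goes against a loss of its mRNA, these libraries are called the pair labelled *sap18* throughout. In *sr45*, *SR45* was at 5.39 and 4.98 cRPKM, 4.10-fold lower than in Col-0.

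FLC is a MADS domain protein that represses flowering. It binds CArG boxes, short AT-rich DNA elements, in the genes of floral activators, and *SOC1* is among its best known direct targets. SOC1 integrates signals from photoperiod, vernalization, gibberellin and age, and it forms a dimer with AGL24, another activator, and each promotes the expression of the other at the shoot apex. Col-0 carries an inactive *FRIGIDA* allele, so that the autonomous pathway and chromatin regulators keep *FLC* low without a cold winter.

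*FLC* was the gene that separated the genotypes most among the 3, and it was higher in both mutants than in Col-0. Its level was 14.5 and 16.6 cRPKM in the pair labelled *sap18*, 57.8 and 57.4 cRPKM in *sr45*, and 2.73 and 3.93 cRPKM in Col-0. No library of one genotype overlapped those of another, with the pair labelled *sap18* in the middle, *sr45* at the top and Col-0 at the bottom. The means were 15.5 ± 1.48 cRPKM in the pair labelled *sap18*, 57.6 ± 0.275 cRPKM in *sr45* and 3.33 ± 0.847 cRPKM in Col-0 (SD, n = 2 each). The relative spread was greatest in Col-0, where the higher library stood 1.44-fold above the lower one, against a median of 1.16-fold over all genes of the table.

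Against Col-0, *FLC* rose 4.66-fold in the pair labelled *sap18* (ratio of means), and the 4 ratios between single libraries ran from 3.68 to 6.06. On the log2(cRPKM + 1) scale, which understates the change of a gene this low in Col-0, the difference was 1.94 (SE 0.18, 95% interval 1.53 to 2.36, adjusted p = 0.00018, limma with Benjamini-Hochberg adjustment over the 454 genes). By the same test 29.3% of the genes of the table were higher and 45.8% were lower in the pair labelled *sap18*. The libraries of 90.5% of all genes did not overlap between these genotypes in either direction, so a lack of overlap alone does not set a gene apart in this table. In *sr45*, *FLC* rose 17.3-fold against Col-0, with single ratios from 14.6 to 21.2. The log2 difference was 3.77 (SE 0.18, 95% interval 3.36 to 4.19, adjusted p = 5.0e-06), the greatest increase among the 454 genes in *sr45* on this scale. By the ratio of means AT5G35935 stood above it at 22.1-fold, with 5.44 cRPKM in *sr45* and 0.247 cRPKM in Col-0. In that comparison 27.5% of genes were higher, 61% were lower and 91.6% had libraries that did not overlap.

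The 2 mutants also differed from each other in *FLC*. The level in the pair labelled *sap18* was 0.2502 to 0.288 of that in *sr45*, and the log2 difference, *sap18* minus *sr45*, was -1.83 (95% interval -2.25 to -1.41, adjusted p = 0.00017). This was the 10th largest decrease of the table, in which 14.1% of genes were lower and 44.3% were higher in the pair labelled *sap18* than in *sr45*, and 87.7% had libraries that did not overlap. By its level within each library *FLC* ranked 202nd and 190th from the top in the pair labelled *sap18*, 37th and 41st in *sr45*, and 417th and 396th in Col-0.

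**Figure D1:**
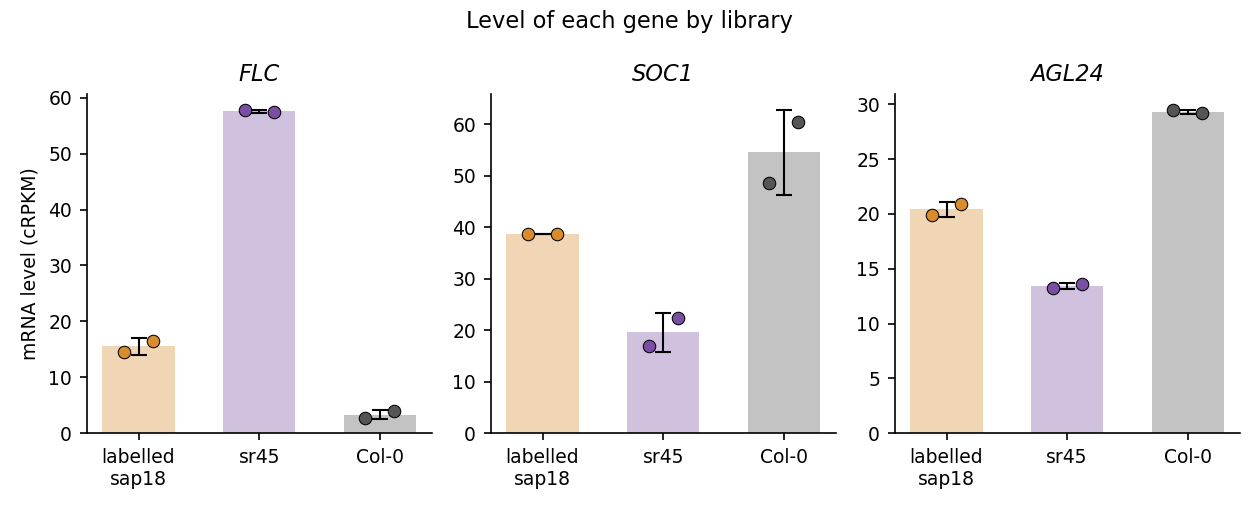
mRNA levels of *FLC*, *SOC1* and *AGL24* in cRPKM (linear axes from 0, scaled for each gene) in the pair labelled *sap18*, in *sr45* and in Col-0. Points are single libraries, bars are means and error bars are the SD (n = 2). The *FLC* points of *sr45* lie at 57.8 and 57.4, above all others, while *SOC1* and *AGL24* are highest in Col-0 and lowest in *sr45*.

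In TAIR10.1 *FLC* lies on the minus strand at chr5:3173382-3179448, and its annotated gene spans 6067 bp with 4 transcripts of 6 to 8 exons. The first intron, of 3493 bases, is known for elements needed to silence the gene. RY elements, read here as TGCATG on either strand, are bound by B3 domain proteins such as VAL1, which is known to work at *FLC* with SAP18. The first 1500 bases of the gene, the part of it that was searched, held 2 of them on the strand of the gene. They lay at positions 289 and 322 of the intron, and the rest of the intron was not searched. The stretch is shown because of the known work of VAL1 at the gene with SAP18. It runs 5′ to 3′ on the minus strand, chr5:3178788-3178906, with both RY elements in capitals.
FLC first intron: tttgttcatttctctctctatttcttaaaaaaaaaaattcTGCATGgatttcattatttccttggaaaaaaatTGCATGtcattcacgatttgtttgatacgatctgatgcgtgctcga
Within the first 1500 bases of genes at least that long, 34.7% of 19120 genes held an RY element, and 1.20% held 2 on one strand that start within 50 bases of each other. An RY element was also found in exon 3 of *AGL24*, at position 1389 of that gene. A match of letters is a description of the sequence and not a site shown to be bound in these seedlings. An annotated long noncoding RNA gene on the plus strand, AT5G01675, overlaps the whole of *FLC* and is not among the 454 loci. The libraries were made with a stranded mRNA kit, but whether reads were counted by strand is not given in the sources used here, so sense and antisense transcripts of *FLC* cannot be told apart in its value.

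*SOC1*, the floral integrator, was lower in both mutants. It was at 38.7 and 38.7 cRPKM in the pair labelled *sap18*, 16.9 and 22.3 cRPKM in *sr45*, and 48.7 and 60.4 cRPKM in Col-0. The genotypes did not overlap, and their order was the reverse of that of *FLC*. The means were 38.7 ± 0.0245 cRPKM in the pair labelled *sap18*, 19.6 ± 3.81 cRPKM in *sr45* and 54.6 ± 8.32 cRPKM in Col-0 (SD, n = 2 each). The near identity of the pair labelled *sap18* is unusual, as the higher was 1.001-fold above the lower and only 0.441% of genes had a smaller ratio there.

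In *sr45* the level of *SOC1* was 0.359 of that in Col-0 (2.78-fold lower), and the single ratios ran from 0.280 to 0.458. The log2 difference was -1.44 (SE 0.19, 95% interval -1.87 to -1.002, adjusted p = 0.00029), a lower value than the median of all genes of the table in *sr45*, -0.96. In the pair labelled *sap18* the level was 0.709 of that in Col-0, with single ratios from 0.640 to 0.795. The adjustment covers only genes selected for change, so it can be milder than one over all genes screened. In the pair labelled *sap18* the log2 difference was -0.48 (SE 0.19, 95% interval -0.91 to -0.04, adjusted p = 0.047), close to the median of the table, -0.38, and just within the threshold. Without the second Col-0 library it was -0.32 with an adjusted p of 0.21, and with libraries centred on the median of the table it was -0.27 with an adjusted p of 0.25. Centring the pair labelled *sap18* on the genes that met the fold criterion in *sr45* alone turned its sign, to 0.027 (adjusted p = 0.91). *SOC1* is itself among those genes, so this centring is not a separate check of it. The table median is not a level of no change either, as the genes were selected as changed and more were lower than higher. Between the mutants, *SOC1* was 1.73- to 2.29-fold higher in the pair labelled *sap18* than in *sr45* (log2 difference 0.96, 95% interval 0.52 to 1.39, adjusted p = 0.0041), and this difference passed under each alternative tried.

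*SOC1* lies on the minus strand at chr2:18807505-18811125 and has 2 transcripts. In the 1000 bases upstream of its start there was 1 CArG box, read here as CCWWWWWWGG (W for A or T), beginning at -711 from the annotated start. Variants of this pattern were not searched. Such a box was found in 7.22% of 27443 upstream windows of that length. It is shown because FLC and other MADS domain proteins bind elements of this kind. The stretch runs 5′ to 3′ on the minus strand, chr2:18811787-18811876, and the box is in capitals.
SOC1 upstream: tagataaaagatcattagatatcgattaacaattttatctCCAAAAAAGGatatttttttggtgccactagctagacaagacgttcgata
*SAP18* itself lies 6033 bases from *SOC1*, on the same chromosome and strand, with *AGL6* between them. *SAP18* was thus the nearest gene of the table to *SOC1*, and its mRNA was 11.4-fold higher in the pair labelled *sap18*, in which *SOC1* was lower. The next gene of the table, AT2G45630 at 10241 bases, which was chosen after its values were seen, was at 3.33 and 3.26 cRPKM in the pair labelled *sap18*, 9.50 and 8.06 cRPKM in *sr45*, and 8.28 and 7.24 cRPKM in Col-0. It fell in the pair labelled *sap18* by 1.03 on the log2 scale (adjusted p = 0.0014), while the value in *sr45* was 0.16 (adjusted p = 0.36). The part of this neighbourhood in the level of *SOC1* was not tested.

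*AGL24*, the partner of SOC1, was lower in both mutants in the same order. Its level was 19.9 and 20.9 cRPKM in the pair labelled *sap18*, 13.2 and 13.6 cRPKM in *sr45*, and 29.5 and 29.2 cRPKM in Col-0. The libraries of a genotype lay close together, and no genotype overlapped another. The means were 20.4 ± 0.696 cRPKM in the pair labelled *sap18*, 13.4 ± 0.292 cRPKM in *sr45* and 29.3 ± 0.182 cRPKM in Col-0 (SD, n = 2 each).

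In *sr45* the level of *AGL24* was 0.457 of that in Col-0 (2.19-fold lower). The log2 difference was -1.07 (SE 0.14, 95% interval -1.40 to -0.75, adjusted p = 0.00029), only 0.11 below the median of all genes of the table in that comparison. In the pair labelled *sap18* its level was 0.697 of that in Col-0, with a log2 difference of -0.50 (SE 0.14, 95% interval -0.83 to -0.17, adjusted p = 0.013). The table median is not a level of no change, as the genes were selected as changed and more were lower than higher. The *AGL24* difference in the pair labelled *sap18* was 0.12 below that median, and it was -0.30 (adjusted p = 0.11) once libraries were centred on it. It also missed the threshold when either library of the pair labelled *sap18* was left out, at -0.47 (adjusted p = 0.083) without the first and -0.53 (adjusted p = 0.058) without the second. *AGL24* was higher in the pair labelled *sap18* than in *sr45* by 0.57 on the log2 scale (95% interval 0.25 to 0.90, adjusted p = 0.011), and this value was 0.20 (adjusted p = 0.33) after median centring. Thus *FLC* stood far from the bulk of the table in all 3 comparisons, *SOC1* lay 0.47 below its median in *sr45* against Col-0, 0.56 above it between the mutants and 0.10 below it in the pair labelled *sap18* against Col-0, and *AGL24* stayed near its median in each.

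**Figure D2:**
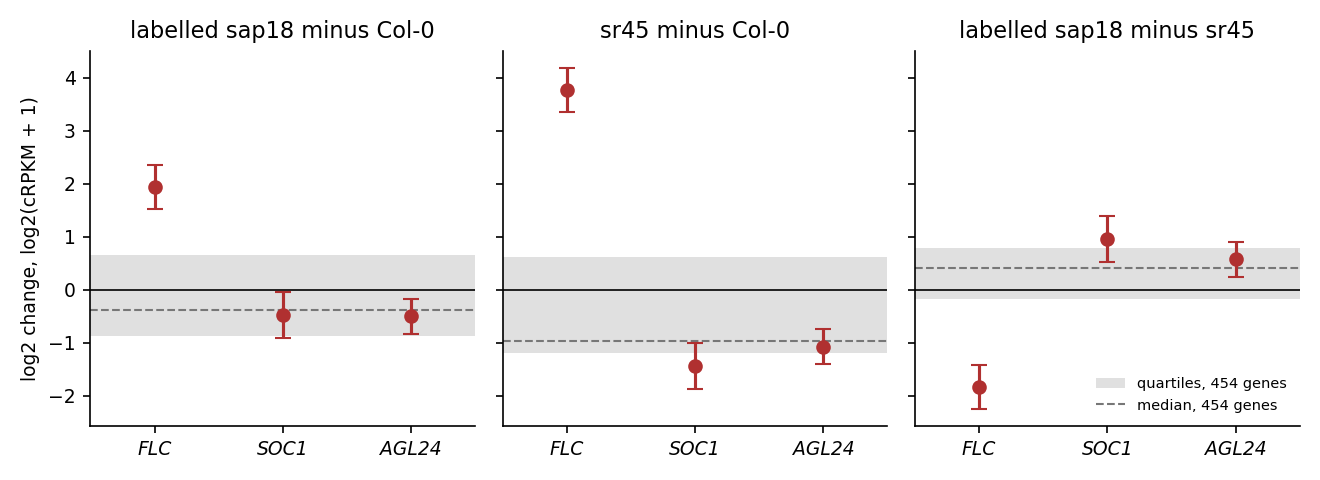
Log2 differences of the 3 genes in each comparison (vertical axis, log2(cRPKM + 1)), as limma estimates with 95% intervals, over the median (dashed) and the quartiles (grey band) of all 454 genes. *FLC* lies outside the band in each panel, at 1.94, 3.77 and -1.83, while *AGL24* lies inside it at -0.50, -1.07 and 0.57.

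*AGL24* lies on the minus strand at chr4:12670897-12674106, with 1 transcript of 9 exons. By the same strict pattern, a CArG box was found in its second intron, 1191 bases from the start of the gene, and none in the 1000 bases upstream. Such a box was present in the first 1500 bases of 8.77% of 19120 genes. The intron sequence is shown for comparison with that of *SOC1*, 5′ to 3′ on the minus strand, chr4:12672867-12672956, with the box in capitals.
AGL24 second intron: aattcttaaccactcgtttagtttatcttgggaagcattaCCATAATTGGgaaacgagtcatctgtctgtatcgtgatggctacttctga
The nearest gene of the table was *PUMP4*, for a mitochondrial dicarboxylate carrier, 12352 bases away. Unlike *AGL24*, it was higher in both mutants, at 10.8 and 8.63 cRPKM in the pair labelled *sap18* and 6.84 and 5.57 cRPKM in *sr45*, against 1.45 and 1.59 cRPKM in Col-0. For *FLC*, the nearest gene of the table was *DOT3*, 37432 bases away.

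By a fold criterion written after the wording of the study's methods but without their minimum of reads, which asked for a ratio of 2 or more, in the same direction, in all 4 pairs of a mutant and a Col-0 library and for levels above 5 cRPKM in both libraries of one genotype, *FLC* was higher in both mutants. This rule is stricter than the selection behind the table, since 219 of the 454 genes met it in neither mutant. *SOC1* and *AGL24* were lower in *sr45* and did not meet it in the pair labelled *sap18*. The criterion was met by 9.25% of genes as higher and 10.6% as lower in the pair labelled *sap18*, and by 11.5% as higher and 30.2% as lower in *sr45*. Under this all-pairs rule 9 genes were higher in both mutants, which share the Col-0 libraries, 35 were lower in both and 0 went in opposite directions. Beside *FLC*, the 9 were AT5G12940, *XTH19*, *ESM1*, *PUMP4*, *ERF003*, *CYP706A5*, *VQ33* and AT3G22235, named here after their values were seen. Between the mutants, *FLC* and *ESM1* were lower and *PUMP4* and AT3G22235 were higher in the pair labelled *sap18* than in *sr45*, and the other 5 did not pass the test.

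The levels in the pair labelled *sap18* lay between those of *sr45* and Col-0 for all 3 genes. On the log2(cRPKM + 1) scale, the difference from Col-0 in the pair labelled *sap18* was 51.5% of that in *sr45* for *FLC*, 33.3% for *SOC1* and 46.7% for *AGL24*. In cRPKM the shares were 22.4% for *FLC*, 45.4% for *SOC1* and 55.9% for *AGL24*, so the order of the 3 genes depends on the scale. An ascending order of Col-0, *sap18* and *sr45* without overlap, as for *FLC*, was shown by 59 of the 454 genes (13.0%). The descending order of *SOC1* and *AGL24* was far more common, with 179 genes (39.4%).

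**Figure D3:**
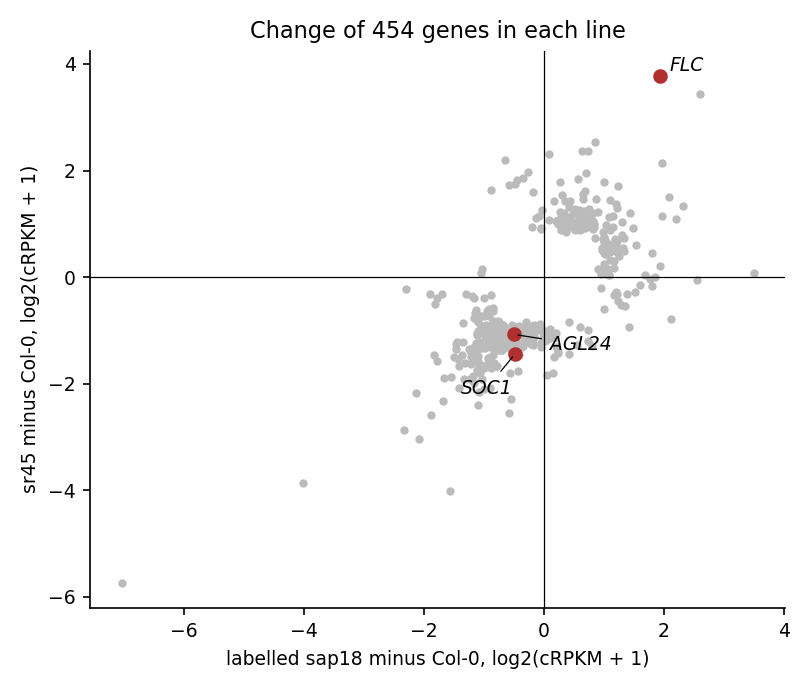
Difference from Col-0 of the 454 genes in the pair labelled *sap18* (horizontal axis) and in *sr45* (vertical axis), both in log2(cRPKM + 1) and both set against the same Col-0 libraries. *FLC*, at 1.94 and 3.77, is the highest point, while *SOC1* and *AGL24* lie within the dense group of genes that were lower in *sr45*.

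A ratio of 2 genes within a library does not depend on a single scaling factor of that library, and cRPKM is per length. The balance of repressor and activators was therefore set out library by library. Quantile normalization is not a single factor, so these ratios are not free of it. The ratio of *FLC* to *SOC1* was 0.374 and 0.428 in the pair labelled *sap18*, 3.42 and 2.58 in *sr45*, and 0.0561 and 0.0650 in Col-0. *FLC* mRNA thus exceeded *SOC1* mRNA in *sr45* alone. The mean ratio was 6.62-fold higher in the pair labelled *sap18* than in Col-0, and 49.5-fold higher in *sr45* than in Col-0. With *AGL24* as denominator the *FLC* ratio was 0.726 and 0.792 in the pair labelled *sap18*, 4.38 and 4.22 in *sr45*, and 0.0928 and 0.135 in Col-0. The genotypes did not overlap in either of these ratios. The ratio of *AGL24* to *SOC1* covered a narrower range, at 0.515 and 0.541 in the pair labelled *sap18*, 0.781 and 0.611 in *sr45*, and 0.605 and 0.483 in Col-0. The pair labelled *sap18* lay within the range of Col-0, and both *sr45* libraries lay above the other 4, the lower of them just above the higher Col-0 library. No test was made of these ratios, and 2 libraries against 2 cannot give a two-sided exact permutation p below 0.333.

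**Figure D4:**
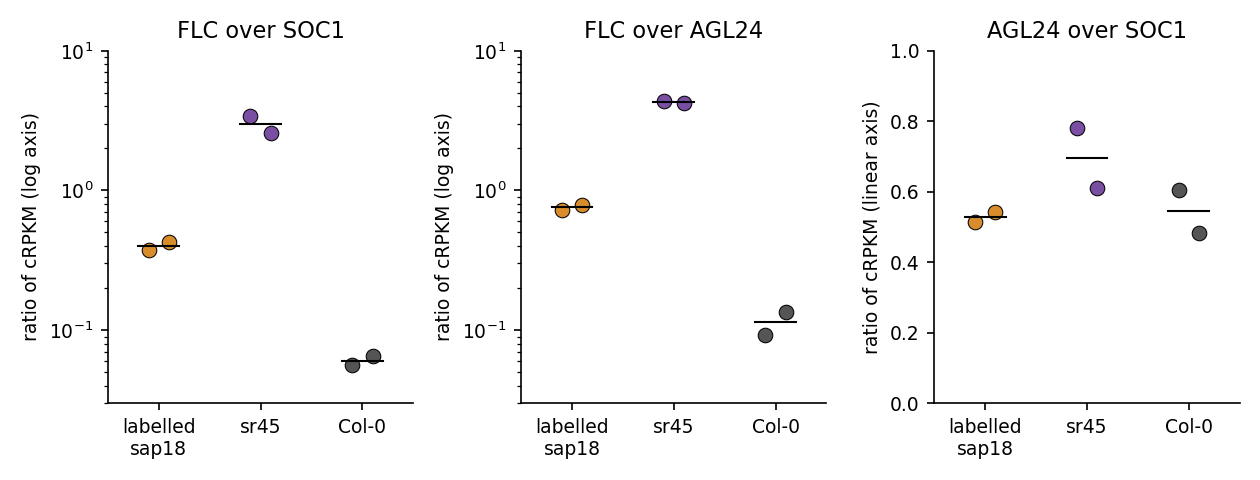
Ratios of cRPKM within each library for *FLC* over *SOC1* and *FLC* over *AGL24* (log axes) and *AGL24* over *SOC1* (linear axis). Points are libraries and horizontal lines are means (n = 2). The 2 ratios with *FLC* separate the 3 genotypes, whereas *AGL24* over *SOC1* runs from 0.483 to 0.781 with *sr45* highest.

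The genes of the table most like each member were found by the root mean square difference, over the 6 libraries, of log2(cRPKM + 1) less its Col-0 mean. For *FLC* the nearest was *ESM1*, a modifier of glucosinolate hydrolysis, at 0.45. It had means of 441 cRPKM in the pair labelled *sap18*, 778 cRPKM in *sr45* and 71.2 cRPKM in Col-0. The next were AT2G34655 and *XTH19*, for a xyloglucan endotransglucosylase, both at 0.98, then AT5G35935 at 1.08 and AT4G22513 at 1.12. Even *ESM1* was farther from *FLC* than the nearest genes were from *SOC1* and *AGL24*. Its log2 difference between the mutants was -0.82, against -1.83 for *FLC*, so *FLC* had no close match in the table. For *SOC1* the nearest were *VSP2*, for a vegetative storage protein, at 0.11, *GRF11*, for a 14-3-3 protein, at 0.14, and *TRFL8*, *MEE14* and *PP2-A13*, all at 0.15. For *AGL24* they were *PERK15*, for a receptor-like kinase, at 0.058, AT5G13980 at 0.060, *BHLH128* at 0.060, *COR413IM1* at 0.061 and AT5G48530 at 0.066. *SOC1* and *AGL24* stood 0.25 apart, against 3.32 between *FLC* and *SOC1* and 3.14 between *FLC* and *AGL24*.

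Genes listed for flowering and related processes were looked up in the table. It holds 454 genes, whereas the upstream windows above came from 27443 protein-coding genes. Absence from the table is thus the usual case for any gene and not a result about these lists. Of 64 genes listed for flowering time, 6 were present: the 3 genes above, *SR45*, *SAP18* and *SPL14*. The lists for florigen and meristem identity (6 genes), photoperiod (8 genes) and gibberellin (8 genes) had 0 members in the table, and such genes were not analysed here. *FLC* was the only member present of the 7 genes listed as *FLC* and its close relatives, and *SOC1* and *AGL24* were the only members present among 13 flowering MADS box genes. *SPL14*, an SBP box transcription factor, was at 14.7 and 14.9 cRPKM in the pair labelled *sap18*, 10.09 and 11.1 cRPKM in *sr45*, and 8.68 and 5.77 cRPKM in Col-0. It was thus higher in both mutants, by 0.97 in the pair labelled *sap18* (adjusted p = 0.0031) and 0.52 in *sr45* (adjusted p = 0.034) on the log2 scale.

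Among 10 clock genes only *RVE2*, a MYB-like factor, was in the table. It was at 21.7 and 19.6 cRPKM in the pair labelled *sap18*, 38.6 and 51.7 cRPKM in *sr45*, and 13.8 and 18.3 cRPKM in Col-0. It rose in *sr45* by 1.43 on the log2 scale (adjusted p = 0.00037), and the value in the pair labelled *sap18* was 0.36 (adjusted p = 0.14). Among 10 cold response genes, *COR15A* and *COR413IM1*, both for chloroplast proteins, were present. *COR15A* was at 37.3 and 34.9 cRPKM in the pair labelled *sap18*, 15.6 and 22.3 cRPKM in *sr45*, and 39.2 and 47.7 cRPKM in Col-0, and it fell in *sr45* by 1.17 on the log2 scale (adjusted p = 0.00085), while the value in the pair labelled *sap18* was -0.26 (adjusted p = 0.27). *COR413IM1*, which is also among the 5 genes most like *AGL24*, was at 11.1 and 11.9 cRPKM in the pair labelled *sap18*, 7.04 and 8.30 cRPKM in *sr45*, and 16.9 and 17.6 cRPKM in Col-0. It fell in the pair labelled *sap18* by 0.55 (adjusted p = 0.012) and in *sr45* by 1.08 (adjusted p = 0.00037).

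In whole seedlings, fewer cells of a type and less RNA per cell cannot be told apart. Of 5 shoot markers, *LHCB4.3* was in the table, at 81.7 and 76.4 cRPKM in the pair labelled *sap18*, 54.3 and 49.9 cRPKM in *sr45*, and 39.8 and 36.5 cRPKM in Col-0. Of 10 root markers, *IRT1* was in the table, at 7.11 and 15.7 cRPKM in the pair labelled *sap18*, 1.94 and 3.70 cRPKM in *sr45*, and 1.60 and 4.05 cRPKM in Col-0. The 8 floral organ markers were not in the table. *LHCB4.3* was thus higher in both mutants without overlap with Col-0. *IRT1* was higher in the pair labelled *sap18* without overlap (log2 difference 1.69, adjusted p = 0.0080) and overlapped between *sr45* and Col-0. Of all genes of the table, 90.5% did not overlap with Col-0 in the pair labelled *sap18*, and 91.6% did not in *sr45*. With only 1 gene of each of these lists in a table of changed genes, the markers do not measure tissue composition. The part of tissue composition in the levels of *FLC*, *SOC1* and *AGL24* was not tested.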

How the data were processed

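The authors extracted RNA from 100 mg of whole seedlings, mapped the reads with vast-tools 2.5 (araTha10 library, from Ensembl Plants 31; TAIR 10 in the submitters' processing notes) and deposited levels in cRPKM, which is RPKM corrected for mappability, after quantile normalization. The deposited table holds 454 genes selected for change, so p-values describe these genes only. The adjustment leaves out the other genes screened, so adjusted p-values can be smaller than they would be over all genes. Samples were grouped by their descriptions, which for the pair labelled *sap18* differ from the titles and genotype labels, and 0 columns were left without a sample. Nothing states that the 2 libraries of a genotype came from separate cultures, so p-values measure the spread between these libraries, which may be technical.

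Differences were tested with limma 3.58.1 (R 4.3.3) on log2(cRPKM + 1), in 1 fit of 3 genotypes without a filter, two-sided, with Benjamini-Hochberg adjustment at 0.05 over all genes. The script was tested on simulated data. Sequences and coordinates come from RefSeq on TAIR10.1 (Biopython 1.88), in which 450 of the loci were found. Tables and plots were made with Python 3.11.15, pandas 2.3.3 and matplotlib 3.10.9.

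The 3 genes and the gene lists were chosen with earlier results of these data known. The genes named are these 3, *SAP18* and *SR45* as a check of the labels, the listed genes present in the table, the 5 genes most like each of the 3, and neighbours present in the table. Alternatives were other pseudocounts, filters, scalings, fits and fold thresholds, a replicate block and leaving out each library.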

Additional observations from a re-analysis of the deposited data

How the results depend on the processing

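The *FLC* differences kept their direction and passed the test under all 14 alternatives in each comparison, with log2 values from 1.30 to 2.43 in the pair labelled *sap18* and 2.91 to 4.304 in *sr45* against Col-0, and from -2.22 to -1.52 between the mutants. Over the 3 genes, 113 of 126 values kept direction and call. Centring each library on the median of the table (which moved by -0.21 in the pair labelled *sap18* and -0.60 in *sr45*) gave, for the pair labelled *sap18*, *SOC1* at -0.27 (adjusted p = 0.25) and *AGL24* at -0.30 (adjusted p = 0.11) against Col-0, and *AGL24* at 0.20 (adjusted p = 0.33) against *sr45*. That median comes from genes selected as changed, more of them lower than higher in both mutants, so it is not a level of no change. Centring each mutant on genes called in the other mutant alone (which moved by -0.52 in the pair labelled *sap18* and -0.18 in *sr45*) gave *SOC1* 0.027 (adjusted p = 0.91) and *AGL24* -0.0064 (adjusted p = 0.98) in the pair labelled *sap18* against Col-0. A pseudocount of 0.1 gave *SOC1* -0.49 there (adjusted p = 0.061).

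Leaving out each library in turn gave *SOC1* values from -0.63 to -0.32 in the pair labelled *sap18* against Col-0. *SOC1* missed the threshold there without the second Col-0 library (adjusted p = 0.21) or either library of the pair labelled *sap18* (adjusted p = 0.15 for both). The range for *AGL24* was -0.53 to -0.47 in that comparison and 0.54 to 0.61 between the mutants (adjusted p = 0.059 without the first and 0.081 without the second library labelled *sap18*). A lone library is assumed to vary like the other groups. Between the mutants 265 genes passed with all 6 libraries, 146 to 265 with one left out, 155 without the first and 146 without the second library labelled *sap18*.

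The all-pairs fold criterion was met by 90 genes in the pair labelled *sap18* and by 189 in *sr45*. Ratios of group means gave 186 and 357, a threshold of 1.5 gave 251 and 364, and a threshold of 3 gave 23 and 51. Leaving out libraries gave from 90 to 149 in the pair labelled *sap18*, the highest without the first Col-0 library. *SOC1* and *AGL24* no longer met the criterion in *sr45* at a threshold of 3 (ratios of means 0.359 and 0.457), after median centring (0.55 and 0.696) or after the other centring (0.407 and 0.518). Of the genes passing limma, 39.0% were higher in the pair labelled *sap18* than in Col-0, and 66.3% after centring on the genes called in *sr45* alone. In *sr45* 31.1% were higher, and 41.9% after median centring. Between the mutants 75.8% were higher in the pair labelled *sap18*, 44.3% after median centring and 87.1% after the other.

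Libraries with the same number in the labels did not deviate together (r from -0.11 to 0.080 across genes, which are not independent), and the main fit used no pairing. Whether libraries of the same number shared a batch cannot be told from 2 libraries per genotype. With the replicate block all 9 differences of the 3 genes still passed.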
